A study of Mus musculus with 4 samples.

Results

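Regulatory T cells (Tregs) whose T cell receptor beta chain was built from the V segment TRBV19 (known in mouse as V beta 6) were compared with Tregs using any other beta chain V segment, within the lung of tumor-bearing mice. The 181 TRBV19 Tregs were defined by 2 readings of the same droplet: at least 1 unique molecular identifier (UMI, a count of 1 captured RNA molecule) of Foxp3 in the gene expression library, and exactly 1 productive beta chain (TRB), of TRBV19, with 1 or 2 productive alpha chains (TRA) in the receptor library. They were 181 of 896 cells with a Foxp3 UMI and a paired receptor, and the other 715 formed the comparison side. These 896 came from 5705 cells with a paired receptor among 7788 barcodes, after barcodes with fewer than 500 genes or with 10% or more mitochondrial UMIs were dropped. Of 1247 Foxp3-positive cells past those limits, 351 lacked the required receptor, 251 because a chain was missing and 100 because there were too many chains.

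The study gave C57BL/6 mice TC1 cells, a transplantable mouse lung tumor line, through a tail vein, and took the lungs 3 weeks later. Age-matched mice without tumor gave normal lung. Both tissues were digested with collagenase, live CD4+ T cells were sorted by flow cytometry, and each of the 2 suspensions yielded 1 gene expression and 1 receptor library by a droplet method that reads transcripts from the 5′ end. The labels give neither the number of mice in a suspension nor any replicate, so both sides of the comparison come from 1 library and no test between conditions could be made. The intervals given are exact 95% intervals that cover counting error only: cells of 1 clone, and UMIs of 1 cell, are not independent draws, and spread between mice is not in them.

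Tregs are CD4+ T cells that restrain other immune cells, and Foxp3 is the transcription factor that defines them. Each T cell joins a V and a J segment for its alpha chain, and a V, a D and a J segment for its beta chain, with bases trimmed and added at the joints. The joint, called the junction or CDR3, makes most of the contact with the peptide that an MHC class II molecule presents. Cells that share both junctions descend from 1 rearranged precursor and are called a clone, whereas the same junction protein written in different bases marks separate precursors.

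Some receptors of the TRBV19 Tregs are printed here because the main result concerns their junctions. Trbv19 lies at chr6:41178589-41179048, Trbj2-7 at chr6:41543810-41543856 and the alpha chain segment Traj37 at chr14:54181518-54181577 in the mouse genome GRCm38.p6. The sequences run 5′ to 3′ from the first cysteine codon, with the beta codons 5 to 9 and the alpha codons 4 to 6 in capitals, the stretch where V, D and J bases meet. The first 4 are separate beta chains, all of TRBV19 and TRBJ2-7, that encode 1 and the same protein.
Beta a: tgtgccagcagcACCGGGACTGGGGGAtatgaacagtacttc
Beta b: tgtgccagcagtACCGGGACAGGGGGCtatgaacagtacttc
Beta c: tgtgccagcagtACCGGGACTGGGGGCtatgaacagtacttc
Beta d: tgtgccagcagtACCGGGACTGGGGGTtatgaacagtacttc
Every clone with these 4 beta chains carried a TRAJ37 alpha chain. The clones of beta a, c and d used TRAV9-2 and the clone of beta b used TRAV7D-2, as in the following junctions, of which the first belongs to the clone of beta a and the second to that of beta b.
Alpha a, TRAV9-2 and TRAJ37: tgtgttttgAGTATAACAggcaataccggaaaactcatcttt
Alpha b, TRAV7D-2 and TRAJ37: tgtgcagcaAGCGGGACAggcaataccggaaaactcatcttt
Other TRAJ37 clones joined a TRAV7 alpha chain to beta chains without TRBJ2-7. Here 1 beta chain from TRBJ2-4 and 1 from TRBJ1-1 are shown, each with its own alpha chain.
Beta e, TRBJ2-4: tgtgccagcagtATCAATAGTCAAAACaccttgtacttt
Alpha e, TRAV7D-4 and TRAJ37: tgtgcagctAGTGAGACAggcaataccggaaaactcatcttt
Beta f, TRBJ1-1: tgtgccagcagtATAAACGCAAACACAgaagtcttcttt
Alpha f, TRAV7D-2 and TRAJ37: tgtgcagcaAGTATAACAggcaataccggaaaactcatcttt

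The labels were first checked against the transcripts. The Trbv19 transcript had 1042 UMIs and was seen in 181 of 181 TRBV19 Tregs, a level of 1101 CPM (UMIs scaled to a total of 1000000), against 30 UMIs in 20 of the 715 other Tregs (7.52 CPM). Transcripts of other V segments were nearly confined to the other side, with 2 Trbv3 UMIs in TRBV19 Tregs against 768 and 3 Trbv1 UMIs against 819. Among TRBV19 cells at the threshold, 33 held exactly 1 Foxp3 UMI and 148 held more, and 389 with a paired receptor held none. Il2ra, the high-affinity chain of the IL-2 receptor, was seen in 4.88% of the TRBV19 cells without Foxp3, in 45.5% of those with 1 Foxp3 UMI and in 80.4% of those with 2 or more, at median depths of 4153, 4018 and 4954.5 UMIs per cell. Ctla4, an inhibitory receptor that Tregs carry constitutively, was seen in 24.2%, 81.8% and 98.6% of them. Ikzf2, the transcription factor Helios, followed the same order at 7.20%, 69.7% and 89.2%, while Gpr83, also a listed Treg marker, was seen in 1.35% of the cells with 2 or more Foxp3 UMIs.

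Both sides were sequenced to a similar depth per cell, with medians of 4765 UMIs and 1961 genes in TRBV19 Tregs and of 4906 UMIs and 1983 genes in the others. Their summed depths were 946667 and 3988547 UMIs. Several markers of other cells were absent: Lyz2, S100a8 and S100a9 (myeloid), Ms4a1 (B cells), Ncr1 and Klrb1c (NK cells) and Krt8 (epithelium) had 0 UMIs on both sides. Others were seen: Epcam in 17.7% of TRBV19 and 13.1% of other Tregs, Cd8b1 in 13.8% and 11.3%, and Cd79b in 6.08% and 8.81%. The summed level of the 4 epithelium and tumor markers was 51.8 CPM in TRBV19 Tregs against 34.6 CPM, of which Epcam gave 43 of 49 and 118 of 138 UMIs; that of the 4 B cell markers was 15.8 against 22.8 CPM, that of the 5 myeloid markers 1.06 against 3.51 CPM and that of the 7 CD8, NK, NKT and gamma-delta T cell markers 29.6 against 26.3 CPM. The part of these markers in the gene differences was not tested beyond leaving out the 23 TRBV19 and 80 other Tregs with 2 or more such UMIs. The tumor and normal expression libraries shared 86 barcodes, 5 of them in TRBV19 Tregs and 7 in other Tregs, and no clone was found in both tissues.

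TRBV19 was the most frequent beta chain V segment among tumor lung Tregs. It was used by 20.2% of the Foxp3-positive cells (interval 17.6% to 23%) and by 8.09% of the Foxp3-negative cells of the same library (389 of 4809, 7.33% to 8.90%). In normal lung it was used by 10 of 151 Foxp3-positive cells, or 6.62% (3.22% to 11.8%), and by 7.63% of Foxp3-negative cells (6.93% to 8.38%). The tumor lung Tregs therefore stood apart from the other 3 populations, which lay between 6.62% and 8.09%. Counting each clone once gave 19.5% in tumor lung Tregs and 8.12%, 6.76% and 7.74% in the others, in the same order. Because the cells were chosen with this excess known, these shares are a description. Relative to Foxp3-negative cells the share was 2.50 times as high for TRBV19 and 2.93 times for TRBV12-2, which was less common, at 3.35% against 1.14% (30 and 55 cells). The pair that the files write as TRBV12-2+TRBV13-2 had 11.6% of Foxp3-positive against 6.82% of Foxp3-negative cells.

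**Figure D1:**
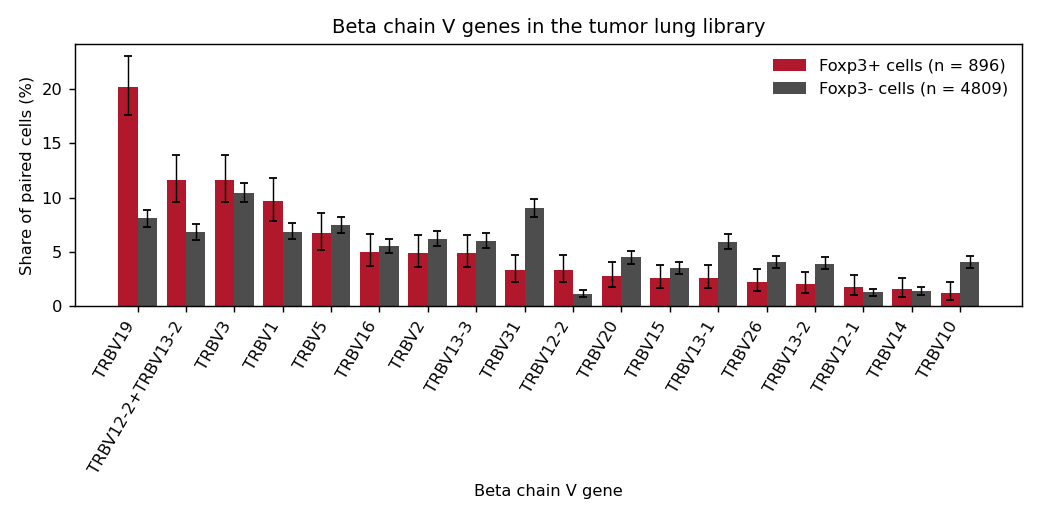
Share of paired cells using each beta chain V gene in the tumor lung library (y axis, percent; bars with exact 95% intervals), for 896 Foxp3-positive and 4809 Foxp3-negative cells. TRBV19 stands at 20.2% against 8.09%, while TRBV31 stands at 3.35% against 9.02%.

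The excess of TRBV19 was spread over many clones. A clone was taken as the cells with identical V and J segments and junction bases in the beta chain and in all productive alpha chains. Cells that share both junctions but differ in the TRAV copy called, or in a second alpha chain, thus count as separate clones. The 181 TRBV19 Tregs formed 143 clones, of which 116 held 1 cell, 18 held 2, 8 held 3 and 1 held 5. The 715 other Tregs formed 592 clones, of which 521 held 1 cell and the largest held 8. Clones of 2 or more cells held 35.9% of TRBV19 Tregs (65 of 181, 28.9% to 43.4%) and 27.1% of other Tregs (194 of 715, 23.9% to 30.6%), and these intervals overlap. With clones defined by the beta chain alone the shares were 44.2% (36.8% to 51.8%) and 31.5% (28.1% to 35.0%), and the intervals do not overlap. These intervals treat cells of 1 clone as independent draws, which they are not. Counting each beta chain clone once, 24.06% of TRBV19 clones (17.08% to 32.2%) held 2 or more cells. The share was 14.04% of other clones (11.29% to 17.16%), and these intervals overlap. Expansion differed among the other V segments. With clones defined by both chains, the share was 44.2% for TRBV3, 40.4% for TRBV12-2+TRBV13-2 and 39.1% for TRBV1. It was 10.0% for TRBV5 and 20.0% for TRBV16. At 35.9% by both chains, TRBV19 had the fourth highest share of the 8 groups with at least 40 Tregs.

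Some cells without a Foxp3 UMI carried a receptor of these clones. There were 8 beside the 181 TRBV19 Tregs, 4 of them in the 27 clones with 2 or more Foxp3-positive cells, and 17 beside the 715 other Tregs. Since a clone entered through its Foxp3-positive cells, these counts are a description. The largest TRBV19 clone, of 5 cells, did not use TRAJ37. Its beta chain joined TRBJ2-4 and its alpha chain joined TRAV13-1 to TRAJ56, here with no capitals in the alpha chain.
Beta of the largest clone: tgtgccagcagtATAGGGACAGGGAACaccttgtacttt
Alpha of the largest clone: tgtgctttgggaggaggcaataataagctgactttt

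The alpha chains of TRBV19 Tregs were dominated by 1 J segment. TRAJ37 occurred in 45 of 143 TRBV19 Treg clones, or 31.5% (24.0% to 39.8%), and in 31 of 592 other Treg clones, or 5.24% (3.59% to 7.35%). Foxp3-negative cells with the same beta chain V segment did not show this: TRAJ37 was in 6.72% of their clones in tumor lung (4.44% to 9.69%) and in 5.22% in normal lung (3.26% to 7.87%). Counted by cells the share in TRBV19 Tregs was 32.6%, 59 of 181. In the other 7 groups with at least 40 Tregs, TRAJ37 was in 0% to 10.8% of clones, and no J segment of the alpha chain passed 17.5% of clones. The 10 TRBV19 Tregs of normal lung, too few to compare, included 1 clone with TRAJ37. TRAJ37 cells were in clones of 2 or more cells at 44.1% (31.2% to 57.6%), against 32.0% (23.8% to 41.0%) of TRBV19 Tregs without it, and these intervals overlap.

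Other alpha chain preferences accompanied it. TRAV7 family segments, a group of near-identical copies that cannot always be told apart, were in 36.4% of TRBV19 Treg clones and 17.1% of other Treg clones. TRAV9 family segments were in 20.3% and 10.3%. Among the more common alpha chain J segments, the only ones ranked, TRAJ17 was second in ratio. It was at 7.69% (3.90% to 13.3%) against 3.04% (1.81% to 4.76%), and these intervals overlap. TRAJ52 and TRAJ32 were each in 0.699% of TRBV19 Treg clones against 4.22% and 3.72%. On the beta chain, TRBJ2-7 was in 39.2% of TRBV19 Treg clones (31.1% to 47.7%), 15% of other Treg clones (12.3% to 18.2%) and 18.3% of TRBV19 Foxp3-negative clones (14.6% to 22.6%). TRBJ2-3 was nearly missing, with 1 of 143 clones against 9.29% and 10.3% in those groups. The beta junctions were also shorter: 39 bases was the median in TRBV19 Tregs and 42 in the other groups, and 45-base junctions made up 9.09% of clones against 23.1% in other Tregs and 20.9% in TRBV19 Foxp3-negative cells.

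**Figure D2:**
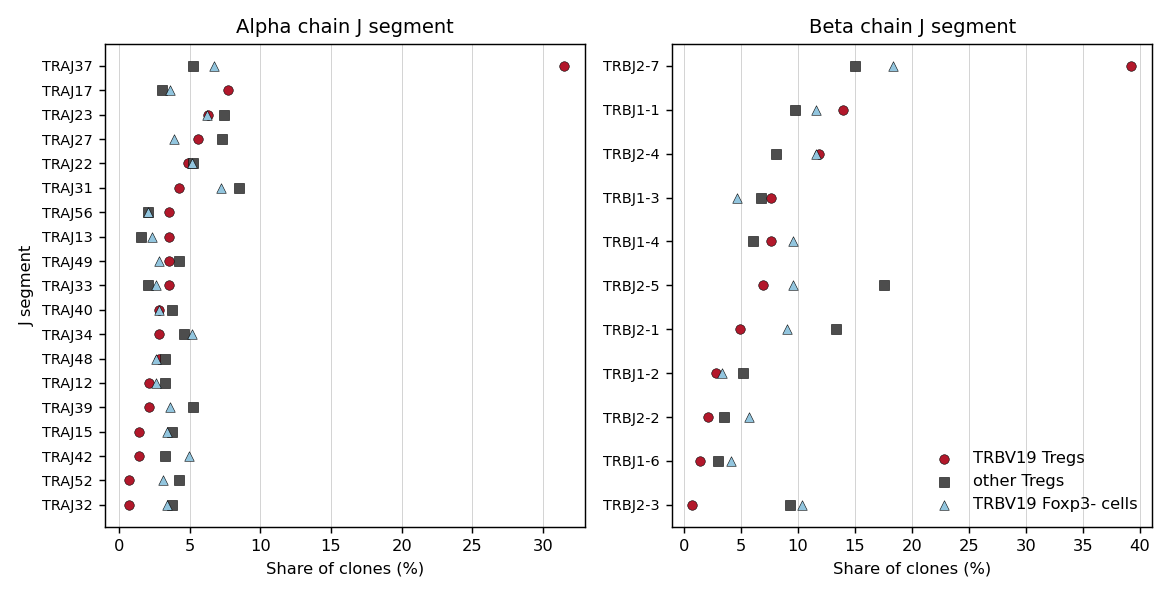
Share of clones (x axis, percent) using each of the more common alpha chain (left) and beta chain (right) J segments. TRBV19 Tregs, other Tregs and TRBV19 Foxp3-negative cells of the tumor lung library are shown, with each clone counted once. TRAJ37 at 31.5% and TRBJ2-7 at 39.2% lie far to the right of the other points of TRBV19 Tregs.

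Most TRAJ37 clones used 1 of 2 TRAV families. In 21 clones the TRAJ37 chain used a TRAV9 family segment, and 21 of these 21 had a beta chain with TRBJ2-7. In 20 clones it used a TRAV7 family segment, and those beta chains were mixed: 5 with TRBJ2-7, 5 with TRBJ1-1, 5 with TRBJ2-4, 2 with TRBJ1-3 and 1 each with TRBJ2-1, TRBJ2-2 and TRBJ2-5. The remaining 4 clones used other TRAV segments. Of the 45 alpha junctions, 38 were 42 bases long, and 36 (80.0%) had threonine at residue 6, the last codon in capitals above. In TRAV9 junctions of 45 bases a threonine codon stood in the same place relative to the TRAJ37 end. How far this residue comes with the TRAJ37 segment and the junction length was not tested. The chains were otherwise varied, with 35 distinct alpha junctions by bases and 26 by protein, so that many separate rearrangements made up the group.

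In these clones residue 6 of the beta junction, counted from 1 at the first cysteine (the second codon in capitals), differed by beta chain J segment. Glycine stood there in 21 of 21 TRAV9-TRAJ37 clones, as in beta a to d. In the TRAV7-TRAJ37 clones it stood in 5 of the 5 with TRBJ2-7, whereas 12 of the 15 with another J segment had asparagine, as in beta e and f. Over all clones asparagine at residue 6 was found in 16.1% of TRBV19 Tregs (10.5% to 23.1%), 2.70% of other Tregs (1.55% to 4.35%) and 3.62% of TRBV19 Foxp3-negative cells (1.99% to 6.00%). Glycine was found in 51.7%, 23% and 30.7%. These residues were chosen after the junctions had been seen.

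A glycine, threonine or leucine, glycine run at residues 6 to 8 marked much of the group. In mouse, both beta chain D segments can encode such a run in a suitable reading frame, so it need not arise from added bases. It was present in 38 of 143 TRBV19 Treg clones, or 26.6% (19.5% to 34.6%), against 2.53% of other Treg clones (1.42% to 4.14%), 7.49% of TRBV19 Foxp3-negative clones in tumor lung (5.08% to 10.6%) and 4.73% in normal lung (2.87% to 7.28%). Alpha and beta features went together within TRBV19 Tregs: 26 of 45 clones with TRAJ37 had the run (57.8%, 42.2% to 72.3%), against 12 of 98 without TRAJ37 (12.2%, 6.49% to 20.4%). Among the 26 TRAJ37 clones of TRBV19 Foxp3-negative cells, 3 had it. This motif too was chosen after the sequences had been seen.

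Different rearrangements often gave the same beta chain protein. Of 133 distinct TRBV19 Treg beta chains, 33 (24.8%, 17.7% to 33.0%) encoded a protein that at least 1 other of these chains also encoded. The same count was 6 of 387 (1.55%, 0.571% to 3.34%) in TRBV19 Foxp3-negative cells of tumor lung and 4 of 397 (1.01%) in normal lung, although those sets held more chains. Among the other V segments of Tregs it was 11 of 68 for TRBV3 (16.2%, 8.36% to 27.1%), which overlaps the TRBV19 interval, and 0% to 7.41% for the other 6. Those Treg sets held 37 to 76 chains, fewer than the 133 of TRBV19, and a smaller set offers fewer possible partners. The part of set size in these shares was not tested. Of the 33 chains, 20 differed from the nearest partner by 1 base and 13 by 2 to 5 bases. Of those 20, 7 also shared an alpha protein with the partner, and there a base error and a separate rearrangement cannot be told apart. Of the 33, 22 shared no alpha protein with the partner.

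Alpha chain proteins were shared as well. Of 132 alpha junction proteins in TRBV19 Tregs, 14 were found in clones with different beta chains, and these clones were 42 of 143 (29.4%, 22.1% to 37.6%). TRAJ37 made 8 of the 14. The most shared alpha protein used TRAJ17 instead: by the clone definition used it was in 7 clones of 1 cell each, with 6 beta chains of 4 proteins. The 5 clones with alpha h had 4 beta chains, so some shared both junctions. Those were split by the TRAV copy call or a second alpha chain and may be 1 clone. The protein was written in the 3 ways below, which differ in the first codon in capitals.
Alpha g: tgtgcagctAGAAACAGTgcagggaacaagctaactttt
Alpha h: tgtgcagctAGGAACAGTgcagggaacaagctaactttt
Alpha i: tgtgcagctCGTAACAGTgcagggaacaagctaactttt

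Gene expression of TRBV19 and other Tregs was alike for most genes. UMIs were summed over the cells of each side and scaled to CPM, and a gene was compared when its level over both sides together was at least 50 CPM. Of 2896 such genes, 23 (0.794%) were at least 1.5-fold higher in TRBV19 Tregs and 22 (0.76%) at least 1.5-fold lower. The median log2 ratio was 0.01 and the 5th to 95th percentile ran from −0.34 to 0.35. The interval of the ratio excluded 1 for all 45 genes past 1.5-fold. At these depths the limit of 50 CPM by itself leads to that outcome, so it adds no support. The same contrast for each of the 7 other V segments with at least 40 Tregs put 24 to 91 genes higher and 46 to 212 lower, in groups of 44 to 104 cells. Those groups held 242942 to 581830 UMIs against 946667 for TRBV19, so the counts cannot be compared between groups.

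**Figure D3:**
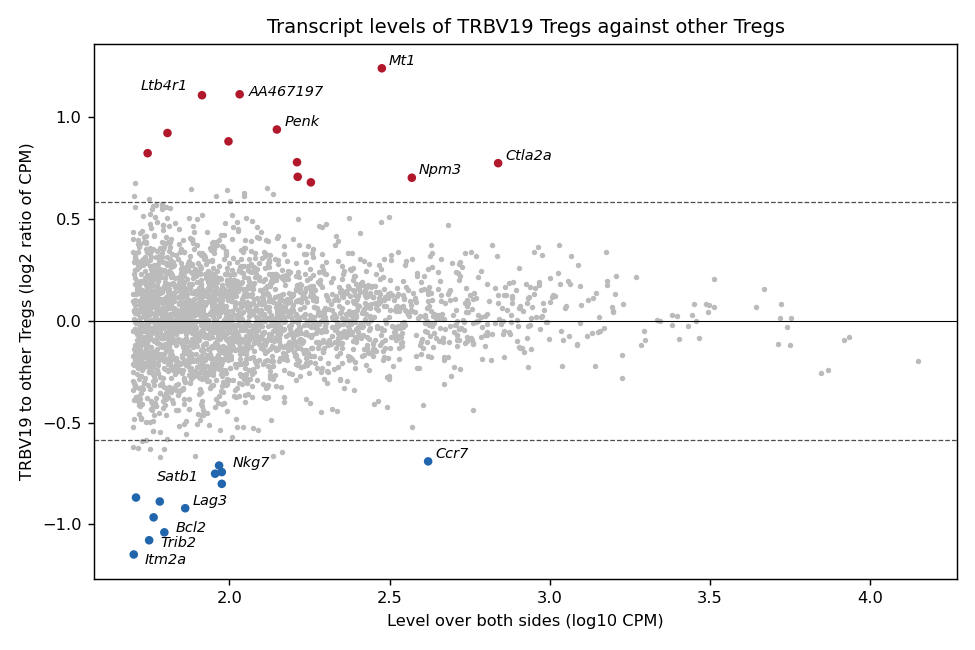
Log2 ratio of TRBV19 to other Tregs (y axis) against the level over both sides (x axis, log10 CPM) for 2896 genes; dashed lines mark 1.5-fold, and colored points are the 12 genes with the highest and the 12 with the lowest ratio. Most points lie between −0.34 and 0.35, and Mt1 is the highest.

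The gene with the highest ratio was Mt1, which encodes metallothionein, a small protein that binds zinc and other metals. Its level was 560 CPM in TRBV19 Tregs (530 UMIs) and 237 CPM in other Tregs (946 UMIs), a ratio of 2.36 (2.12 to 2.63). It was seen in 48.1% of TRBV19 Tregs and 32.4% of the others, and in 43.4% and 27.4% after each cell was thinned to 3102 UMIs, which left 159 and 647 cells and dropped 22 and 68. TRBV19 cells without Foxp3 had Mt1 in 1.29% of cells, so the share in Tregs lay well above that background. The cell with most Mt1 held 77 of the 530 UMIs. Across the other V segments the Mt1 level ran from 189 to 314 CPM, and in the 151 Tregs of normal lung it was 15.2 CPM.

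AA467197, a gene that holds the microRNA gene Mir147 within its bounds, came next, at 190 against 88.0 CPM, a ratio of 2.16 (1.80 to 2.59). Ltb4r1, a receptor for the chemoattractant leukotriene B4, stood at 145 against 67.2 CPM, a ratio of 2.15 (1.74 to 2.66), and was seen in 33.7% and 17.6% of cells. Penk, the precursor of enkephalin peptides, stood at 229 against 120 CPM, a ratio of 1.92 (1.62 to 2.26), with 43 of its 217 UMIs in 1 cell. Cybb, a subunit of the phagocyte NADPH oxidase, stood at 104 against 54.7 CPM, a ratio of 1.89 (1.48 to 2.41). These are rare to moderate transcripts, seen in 18.8% to 34.8% of TRBV19 Tregs. Ctla2a, a cysteine protease inhibitor, was far more abundant: 1038 against 607 CPM, a ratio of 1.71 (1.59 to 1.84), in 74.0% and 56.5% of cells. Its near-identical neighbor Ctla2b had a ratio of 1.48 (1.12 to 1.93), and reads of the pair may be divided between them. Npm3, a nucleolar chaperone of the nucleoplasmin family, stood at 539 against 331 CPM, a ratio of 1.63 (1.47 to 1.80). Sytl1, an effector of vesicle transport, stood at 245 against 143 CPM, a ratio of 1.71 (1.47 to 2.0). The remaining genes among the 12 highest were N4bp2l1 (1.84), Gm4316 (1.77), Rln3 (1.63) and Sv2c (1.60).

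The 12 genes with the lowest ratios were mixed in function. Itm2a, a membrane protein of activated and maturing T cells, stood at 25.4 against 56.2 CPM, a ratio of 0.451 (0.283 to 0.689). Bcl2, which protects lymphocytes from apoptosis, stood at 33.8 against 69.4 CPM, a ratio of 0.487 (0.326 to 0.703). Ccr7, the receptor that guides T cells to lymph nodes, stood at 279 against 450 CPM, a ratio of 0.620 (0.542 to 0.706), and was the most abundant of the 12. It was seen in 28.2% of TRBV19 Tregs and 35.7% of the others. Satb1, a chromatin organizer of T cell development, stood at 58.1 against 97.8 CPM, a ratio of 0.594 (0.440 to 0.790). Lag3, an inhibitory receptor that binds MHC class II, stood at 42.3 against 80.0 CPM, a ratio of 0.528 (0.370 to 0.735). The others were Trib2 (0.474), Trat1 (0.512), Tubb2a (0.541), Tmem71 (0.548), Klhl6 (0.574), Nkg7 (0.597) and Itgb1 (0.611). Itm2a, Trib2, Tmem71, Trat1 and Bcl2 each rest on 24 to 32 UMIs on the TRBV19 side.

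Gene lists were described by how many of their compared members passed 1.5-fold, beside the 0.794% and 0.76% over all compared genes. In the list of naive and lymph node homing genes 0 of 9 were higher and 4 were lower (Ccr7, Satb1, S1pr1 and Klf3), with a median log2 ratio of −0.38 against 0.01 over all genes. That median was −0.16 in cells with at least 2 Foxp3 UMIs and 0.0098 in clones of 2 or more cells, where its direction was lost. S1pr1, which lets T cells leave tissue towards sphingosine-1-phosphate, stood at 93 against 147 CPM, a ratio of 0.631 (0.498 to 0.790), and Klf3, a transcription factor of quiescent lymphocytes, had 0.648 (0.438 to 0.933). Klf2 and Lef1 did not pass 1.5-fold, with ratios of 0.789 and 0.770, and Igfbp4 and Il7r lay above 1. Among 15 chemokine and retention receptors 0 were higher and 3 lower (Ccr7, Itgb1 and S1pr1), with a median of −0.24, or −0.02 in clones of 2 or more cells. Cxcr3, a receptor of Th1-type cells, had a ratio of 0.742 and Ccr8, a receptor of tissue Tregs, one of 1.25.

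The identity of the Tregs was nearly the same on both sides. Of 11 compared Treg identity genes 0 passed 1.5-fold, with a median log2 ratio of 0.14, and 10 of the 11 lay above 1. Foxp3 itself, on which the cells were chosen, had a ratio of 1.11 (1.03 to 1.20), Il2ra 1.23 (1.12 to 1.36), Ikzf2 1.10 (1.00 to 1.20) and Ctla4 1.16 (1.10 to 1.22). Of 12 genes of tissue Tregs and the IL-33 response 0 passed 1.5-fold, with a median of 0.05 that changed sign under 3 of 16 alternatives. In that list Klrg1, a marker of differentiated Tregs, had 1.42 (1.27 to 1.60) and Gata3 1.42 (1.24 to 1.62), while Areg, a growth factor for epithelium, had 0.697 (0.609 to 0.795). Il1rl1, the IL-33 receptor, was under 50 CPM, with 44 UMIs in TRBV19 Tregs and a ratio of 1.03 (0.723 to 1.44).

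Lists of receptor signaling and suppression were described next. Of 14 compared genes of the TCR signal 0 passed 1.5-fold in either direction, with a median log2 ratio of 0.17, or 0.05 in clones of 2 or more cells. Nr4a1, an early target of that signal, had a ratio of 1.18 (1.10 to 1.26) and Egr1 1.26 (1.05 to 1.49). In TRBV19 cells without TRAJ37 the Nr4a1 ratio was 0.988, at 1012 against 1024 CPM, while Egr1 stood at 176 against 141 CPM. Of 12 suppressor and effector molecules 1 was higher (Ctla2a) and 1 lower (Lag3), with a median of 0.23 that turned to −0.11 in clones of 2 or more cells and to −0.04 in TRBV19 cells without TRAJ37. Gzmb, the protease granzyme B, had 1.39 (1.26 to 1.52), and Il10, at 41.2 against 49.1 CPM, had 0.838 (0.579 to 1.19). With the TRAJ37 cells left out, the Gzmb ratio was 0.989 and the Il10 ratio 1.11. Of 6 inhibitory receptors 0 were higher and 1 lower (Lag3), with a median of 0.27, or 0.06 in clones of 2 or more cells, while Pdcd1 had 1.26 (1.15 to 1.38) and Tigit 1.29 (1.20 to 1.38).

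The remaining lists had medians from −0.48 to 0.14. Of 21 interferon response genes 0 passed 1.5-fold and the median was 0.09, with Isg15 at 0.931. Of 14 MHC class I genes 0 passed and the median was 0.11. Of 7 genes of Th1-like Tregs and cytotoxicity 0 were higher and 1 lower (Nkg7), with a median of −0.15 that changed sign under 2 of 16 alternatives, and Ccl5 had a ratio of 1.07. None of the 8 costimulatory and TNF receptors passed (median 0.12; Icos 0.997, Tnfrsf9 1.13, Tnfrsf18 1.13), nor did any of 12 immediate early genes (0.14), of 6 proliferation genes (0.03) or of 3 follicular genes (−0.09). The list of IL-2 and STAT5 targets had 0 higher and 1 lower of 13 (Bcl2; median 0.13), that of the TCR complex 0 higher and 1 lower of 14 (Trat1; −0.01), and that of survival and metabolism 1 higher and 1 lower of 15 (Mt1 and Bcl2; −0.08). The 1 compared Th17 gene, Ccr6, had a log2 ratio of −0.48. Mki67, a marker of cycling cells, was under 50 CPM, with 34 and 77 UMIs and a ratio of 1.86 (1.20 to 2.82), and was seen in 12.7% and 7.55% of cells. Tbx21, the transcription factor of Th1 cells, had 23 and 60 UMIs and a ratio of 1.62 (0.953 to 2.65), and Tcf7, a factor of stem-like T cells, had 27 and 189 UMIs and a ratio of 0.602 (0.386 to 0.904).

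Whether TRBV19 stood at the end of the range was then read from the 8 V segments with at least 40 Tregs each. TRBV19 had the highest level of the 8 for each of the 12 genes with the highest ratio, although Rln3 was nearly level with TRBV1, at 238 against 237 CPM, and Sytl1 with TRBV16, at 245 against 233 CPM. For Mt1 the next group had 314 CPM, for Ltb4r1 89.4 CPM and for Ctla2a 785 CPM. Among the 12 genes with the lowest ratio TRBV19 was the lowest of 8 for Itm2a, Trib2, Bcl2, Trat1, Tmem71, Klhl6, Satb1 and Itgb1. It was not so for Ccr7, where TRBV5 was lower at 263 CPM, nor for Tubb2a, Lag3 and Nkg7, where 2 or 3 groups were lower. Lag3 ranged from 20.1 CPM in TRBV16 to 139 CPM in TRBV12-2+TRBV13-2, with TRBV1 and TRBV3 near the upper end at 125 and 123 CPM. These genes were picked on the same cells, and the ranks are a description.

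**Figure D4:**
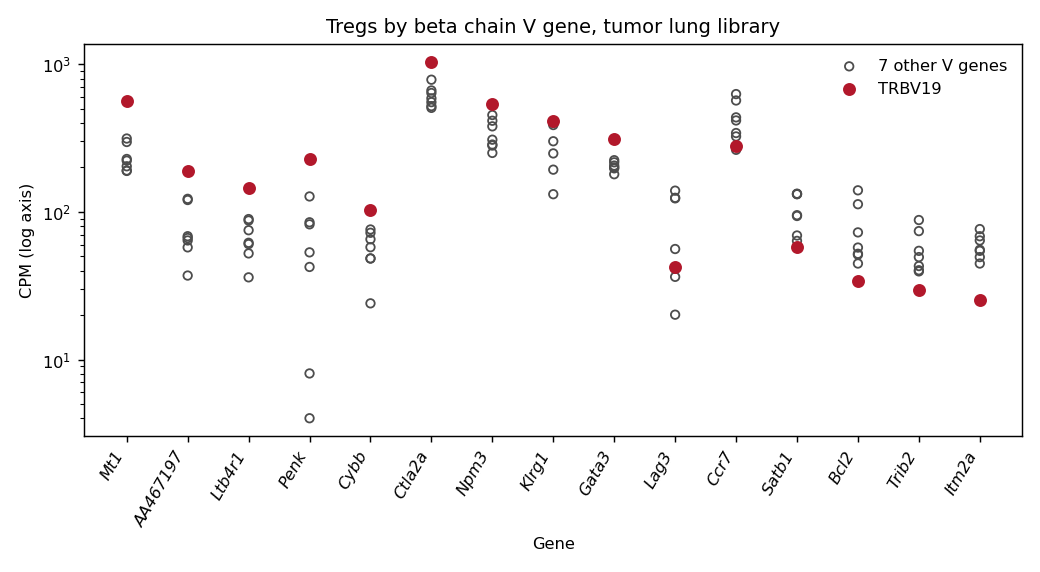
Level (y axis, CPM, log axis) of 15 genes in Tregs of each of 8 beta chain V genes with at least 40 Tregs; filled points are TRBV19 and open points the 7 others. For Mt1 the TRBV19 point is 560 CPM against 189 to 314 CPM, and for Lag3 it lies inside the range of the others.

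Among Foxp3-negative CD4+ T cells the same contrast found fewer genes. Of 2387 genes compared between 389 and 4420 such cells, 4 (0.168%) were at least 1.5-fold higher with TRBV19 and 1 (0.0419%) lower. Those higher were S100a6 (1.64), Tigit (1.61), Ccl5 (1.58) and Ctla2a (1.55), and the lower one was Stmn1 (0.647). Ctla2a was the 1 gene of the 5 that was also past 1.5-fold in Tregs, at 109 against 70.5 CPM here. Mt1 had 7.09 against 5.34 CPM in these cells and Ccr7 1076 against 1005 CPM. AA467197 and Rln3, both under 50 CPM there, had 11.2 against 1.87 CPM and 13 against 3.58 CPM, in 0.771% and 2.31% of the TRBV19 cells. Some Treg genes also stood higher with TRBV19: Il2ra at 24.2 against 9.96 CPM (2.43, 1.69 to 3.42) and Ikzf2 at 44.9 against 20.3 CPM (2.21, 1.70 to 2.83). Klrg1 had 22.4 against 5.91 CPM (3.79, 2.56 to 5.52). Ctla4 had 1.42 (1.27 to 1.57) but was seen in 24.2% against 26.3% of cells. Gata3 (1.14) and Areg (1.16) had intervals that include 1. The part of Treg-like cells without a Foxp3 UMI in this contrast was not tested. The difference between the Treg and the Foxp3-negative ratios was not tested.

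Clone size moved with several of these levels. Within TRBV19 Tregs Mt1 was 450 CPM in the 116 cells of single-cell clones and 774 CPM in the 65 cells of larger clones. In other Tregs it was 169 and 426 CPM, so TRBV19 Tregs were higher at either clone size. Ctla2a had 942 and 1226 CPM in TRBV19 against 588 and 662 CPM, and Npm3 had 487 and 640 CPM against 292 and 441 CPM, in the same order. Ltb4r1 was likewise higher at both sizes, at 134 and 165 CPM against 52.9 and 107 CPM.

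Other genes were apart in single-cell clones and close in larger ones. Ccr7 was 311 CPM in TRBV19 and 530 CPM in other single-cell clones, but 215 and 228 CPM in clones of 2 or more cells. Klrg1 was 383 against 232 CPM in single-cell clones and 477 against 457 CPM in larger ones, and Pdcd1 567 against 404 CPM and 821 against 838 CPM. Klf2, a transcription factor that drives S1pr1, went from lower to higher: 224 against 318 CPM in single-cell clones and 156 against 76.6 CPM in larger ones. Lag3 was the reverse of Ccr7, with 47.9 against 57.7 CPM in single-cell clones and 31.2 against 142 CPM in larger ones. The largest TRBV19 clone added 44 of the 552 Ccl5 UMIs and 24 of the 530 Mt1 UMIs.

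**Figure D5:**
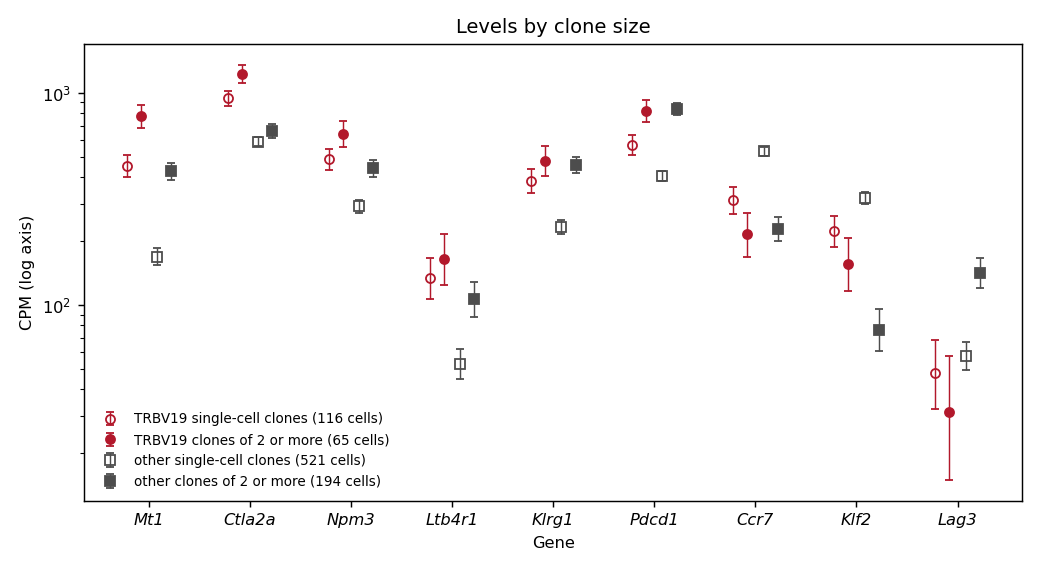
Level (y axis, CPM, log axis, with exact 95% intervals) of 9 genes in TRBV19 and other Tregs, each divided into single-cell clones and clones of 2 or more cells. Mt1, Ctla2a, Npm3 and Ltb4r1 are higher in TRBV19 Tregs at both clone sizes, while Ccr7, Klrg1 and Pdcd1 are close in the larger clones.

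Finally, TRBV19 Tregs with TRAJ37 (59 cells, 45 clones) were set against those without it (122 cells, 98 clones). At this depth, 306238 and 640429 UMIs, 161 of 2934 genes (5.49%) were at least 1.5-fold higher with TRAJ37 and 147 (5.01%) lower, shares well above those of the main comparison in fewer cells. Gzmb stood at 996 against 443 CPM, a ratio of 2.25 (1.90 to 2.65). It was seen in 26 of the 59 cells (44.1%) and in 38.5% of those without TRAJ37, and 1 cell held 64 of its 305 UMIs. Nr4a1 stood at 1610 against 1012 CPM, a ratio of 1.59 (1.41 to 1.79), and was seen in 96.6% and 86.1% of cells. Ccr7 had a ratio of 0.477 (0.342 to 0.653) and S1pr1, with 16 UMIs in TRAJ37 cells, 0.465 (0.252 to 0.807). Mt1 and Ctla2a were close on both sides of this split, with ratios of 0.971 (0.803 to 1.17) and 1.02 (0.889 to 1.17), and TRBV19 Tregs without TRAJ37 had 565 CPM of Mt1 and 1032 CPM of Ctla2a.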

How the data were processed

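The deposited gene expression files hold UMI counts per gene and barcode, whole numbers that are not normalized, made by the authors with Cell Ranger on mm10, per the submitters' processing notes, with software version 3.1.0 per the file headers. The receptor files list assembled contigs with segment calls and junction bases, and the version of their assembler is not given in the sources used here. Segment coordinates come from the RefSeq gene table of GRCm38.p6. From the counts, CPM, ratios with exact conditional intervals and exact Clopper-Pearson intervals for shares were computed (Python 3.11.15, numpy 2.4.6, pandas 2.3.3, scipy 1.17.1), with the scripts tested on simulated data. For ratios, a side with fewer than 3 UMIs was set to 3. No p-value was computed, since each tissue has 1 library. No doublet caller was run: cells with more than 1 beta or 2 alpha chains were left out. Named genes are the 12 highest and 12 lowest ratios without receptor, ribosomal, mitochondrial and hemoglobin genes, Xist and Y chromosome genes, a fixed list of Treg and T cell genes, and up to 3 list members past 1.5-fold. Ctla2b, Klf3 and some further list members were named after their values were seen. A gene of the fixed list is not reported here. The members and lists were chosen with earlier results of these data known. The alternatives changed the scaling, the filters, the Foxp3 and alpha chain limits and the weighting of clones.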

Additional observations from a re-analysis of the deposited data

Results flagged for a closer look

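The share of TRBV19 is listed for a closer look because it ran in opposite directions in the 2 tissues. In tumor lung 20.2% of Foxp3-positive cells and 8.09% of Foxp3-negative cells used TRBV19, whereas in normal lung the shares were 6.62% and 7.63%. The normal lung value rests on 10 of 151 cells, with an interval of 3.22% to 11.8%, and with 1 library per tissue the difference between the tissues was not tested.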

How the results depend on the processing

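The number of genes past 1.5-fold was 45 in the main comparison. It was 16 with at least 100 CPM, 2574 with no filter on low levels, 75 in cells with exactly 1 alpha chain, 82 with each clone weighted equally, 89 in single-cell clones and 130 after thinning. Of alternatives chosen after seeing the data, clones of 2 or more cells gave 244 and TRBV19 cells without TRAJ37 gave 71. The median log2 ratio of the naive and lymph node homing genes, −0.38, was −0.50 with no filter on low levels, −0.16 with at least 2 Foxp3 UMIs, −0.53 without cells holding markers of other cell types, −0.61 with clones weighted equally, −0.49 in single-cell clones and 0.0098 in clones of 2 or more cells. With clones defined by the beta chain alone, 44.2% of TRBV19 and 31.5% of other Tregs were in clones of 2 or more cells. Those intervals, which treat cells of 1 clone as independent, no longer overlap. Counting each beta chain clone once, 24.06% of TRBV19 and 14.04% of other clones held 2 or more cells. The intervals of 17.08% to 32.2% and 11.29% to 17.16% overlap. Of 18 gene lists, 10 had a median that changed sign under at least 1 alternative, 24 of 285 values in all. Within clones of 2 or more cells the ratio was on the other side of 1 for Trat1 (1.20), Itgb1 (1.17) and Tbx21 (0.852). The Tcf7 ratio of 2.48 there came from 1 TRBV19 UMI set to 3, since its levels were 3.12 against 3.78 CPM. The cause of the other shifts was not tested. Over 16 alternatives Mt1 stayed between 1.79 and 2.82, and Mt1, AA467197, Ctla2a, Cybb, Itm2a, Ltb4r1, Sytl1 and Trib2 were past 1.5-fold in all 16. The shares of TRAJ37, TRBJ2-7, the residue 6 to 8 run and TRBV19 moved by less than their intervals. No paired analysis was possible because each tissue has 1 library of each kind.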
